A study of Mus musculus with 50 samples.

Results

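The genes described here build ribosomes. A list of 40 gene symbols covers the nucleolus and the ribosome assembly line, with Npm1 at its head, and 39 of the 40 were found among the 33924 genes that each of the 2 deposited count tables holds. The exception, Noc2l, was not analysed here. The genes were chosen by name and not by a measured value. The 39 genes were grouped by role: 4 nucleolar chaperones and phosphoproteins (Npm1, Npm3, Ncl, Nolc1), 3 core proteins of box C/D small nucleolar RNA particles (Fbl, Nop56, Nop58), 4 core proteins of box H/ACA particles (Dkc1, Gar1, Nhp2, Nop10), 5 genes of RNA polymerase I and ribosomal DNA transcription (Polr1a, Polr1b, Polr1c, Ddx21, Mybbp1a), 11 genes of small subunit processing (Rrp9, Nop14, Utp20, Utp15, Wdr43, Heatr1, Tsr1, Bysl, Nob1, Rrp12, Noc4l) and 12 of large subunit processing (Bop1, Pes1, Wdr12, Nop2, Nop16, Rrp1b, Rrs1, Wdr74, Gnl3, Noc3l, Ebna1bp2, Grwd1).

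RNA came from blood-forming cells of mice. The first table holds WT mice at 4 weeks and mice with a Flt3 mutation alone at 2, 4, 6 and 8 weeks, each as sorted LSK (lineage-negative, Sca1-positive, Kit-positive cells, a fraction that holds the stem cells) and GMP (granulomyeloid progenitors), with 3 libraries per group. The second holds LSK and GMP of mice with Npm1 and Flt3 mutations (4 libraries each) and of mice with Dnmt3a and Flt3 mutations (3 each). It also holds lineage-negative stem and progenitor cells (Lin- HSPCs) of Npm1 Flt3 mice given vehicle or tamoxifen (TAM) for 7 days (3 each), where TAM switches on a Cre that removes the mutant Flt3 allele. Mutations were switched on by Cre, Dre or Flp recombinase. Every group other than WT therefore carried a Flt3 mutation at first, and the TAM group was treated to remove it. How far it was removed cannot be read from the counts, which do not separate mutant from normal alleles. The second table has no WT library and no library with the Flt3 mutation alone. The labels do not give the alleles, the promoters driving the recombinases, the event from which weeks were counted, or the age of the Npm1 Flt3 and Dnmt3a Flt3 mice, which were taken at a time point or once they had symptoms.

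Ribosomes are made in the nucleolus, where RNA polymerase I transcribes ribosomal DNA into a long precursor. Small nucleolar RNA particles then guide methylation and pseudouridylation of that precursor, and processing factors cut and fold it into the small and large subunits. Npm1 (nucleophosmin) is an abundant nucleolar chaperone, and frameshift mutations of its last exon, which move the protein to the cytoplasm, are among the common lesions of human acute myeloid leukaemia. Flt3 is a receptor tyrosine kinase of early blood progenitors that is often mutated in the same disease, and Dnmt3a is a DNA methyltransferase. Many ribosome biogenesis genes are known targets of the transcription factor MYC, which binds the sequence CACGTG with its partner MAX.

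Promoter sequences are shown because MYC family genes were read beside these genes throughout. RefSeq gave a promoter window (250 bases before to 50 bases after the start, build GRCm38.p6) for 34 of the 39 genes, and 7 of the 34 (20.6%) held CACGTG, a word that reads the same on both strands. Over all 27025 genes with such a window, 2187 (8.09%) held it. The 7 were Nop2, Grwd1, Utp20, Pes1, Mybbp1a, Tsr1 and Wdr43. In 6 of them the word lay just after the annotated start, beginning between 2 and 40 bases after it, and in Nop2 it began 60 bases before. A match of letters is a description of the window and not a binding site. The windows of 30 bases around the word for 4 of them, on the strand of the gene with CACGTG in capitals, were the following.
Nop2 (chr6:125131811-125131840, plus strand): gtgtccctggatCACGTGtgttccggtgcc
Pes1 (chr11:3963965-3963994, plus strand): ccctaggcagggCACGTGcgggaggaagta
Tsr1 (chr11:74898092-74898121, plus strand): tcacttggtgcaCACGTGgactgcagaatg
Wdr43 (chr17:71616220-71616249, plus strand): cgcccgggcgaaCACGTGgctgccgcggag

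Levels are given as CPM, the count divided by the total count of its library on the usual scale. Library totals ran from 306571 to 8249135 in the first table and from 15053592 to 128057407 in the second, so levels are set side by side only within a table. Of the 50 libraries, 47 were used. Flt3 8w GMP replicate 2 was left out with a total of 1942 counts. A pair of Dnmt3a Flt3 libraries (replicate 1 of LSK and replicate 2 of GMP) was set aside, since in each the title names 1 cell type and the code the other. Their marker sums lay with their titles, with GMP markers at 3762 CPM in the library titled LSK and at 49575 CPM in the one titled GMP. Flt3 RNA was higher in Flt3 4w GMP than in WT GMP by 2.28 ± 0.21 on the log2 scale (SE). In LSK the value of 0.40 ± 0.14 did not pass (edgeR adjusted p = 0.0703). Such a level does not check the genotype. Summed GMP markers were at 1669 to 5445 CPM in LSK and 15103 to 55891 in GMP libraries of the first table. In the second they were at 1936 to 4697 and 18893 to 62479, so by GMP markers the sorted types were apart as labelled. Summed LSK markers were at 1611 to 2836 CPM in LSK and 783 to 1843 in GMP libraries of the first table. In the second they were at 1820 to 3618 and 1084 to 1903. These LSK sums overlapped between the sorted types across groups, but were apart within each genotype and time. The counts do not separate mutant from normal alleles of Flt3 or Npm1. No gene of the 39 was at 0 in any library used.

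Npm1 lies on chromosome 11 (chr11:33152498-33164142 in GRCm38, exon length 2665 bases) and was the gene reported alone. Within the first table, Npm1 stood at 626, 597 and 494 CPM in WT LSK and at 724, 649 and 570 CPM in WT GMP. In Flt3 LSK its mean was 465.7 ± 28.4 CPM (SD, n = 3) at 2 weeks, 722 ± 52 at 4 weeks, 704 ± 93 at 6 weeks and 749 ± 77 at 8 weeks. In Flt3 GMP the means were 306 ± 52 at 2 weeks, 579 ± 27 at 4 weeks, 629.8 ± 80.4 at 6 weeks and 658 ± 118 (n = 2) at 8 weeks. The 2-week GMP libraries (331, 247 and 340 CPM) lay below all other sorted libraries of that table. From 4 weeks on, the Npm1 libraries of neighbouring time points overlapped in both cell types.

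Within the second table, Npm1 stood at 1382, 1429, 1118 and 1896 CPM in Npm1 Flt3 LSK and at 955, 855, 1378 and 1043 CPM in Npm1 Flt3 GMP. Dnmt3a Flt3 LSK had 1774 and 1742 CPM, and Dnmt3a Flt3 GMP 1425 and 1242 CPM. The ranges of the 4 sorted groups met or overlapped except for Dnmt3a Flt3 LSK, which lay above both GMP groups and inside the range of Npm1 Flt3 LSK. In the treated mice, Npm1 fell to 863, 389 and 612 CPM with TAM from 1657, 2120.5 and 2013 CPM with vehicle, with no overlap. Npm1 made up 15.4% of the summed CPM of the 39 genes in Npm1 Flt3 LSK, 12.8% in Npm1 Flt3 GMP, 12.6% and 11.2% in Dnmt3a Flt3 LSK and GMP, 14.9% with vehicle and 12.3% with TAM. Npm1 has 8 pseudogene copies that share 300 or more bases at 90% identity or more, so a part of its reads may have been split among them or dropped.

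**Figure D1:**
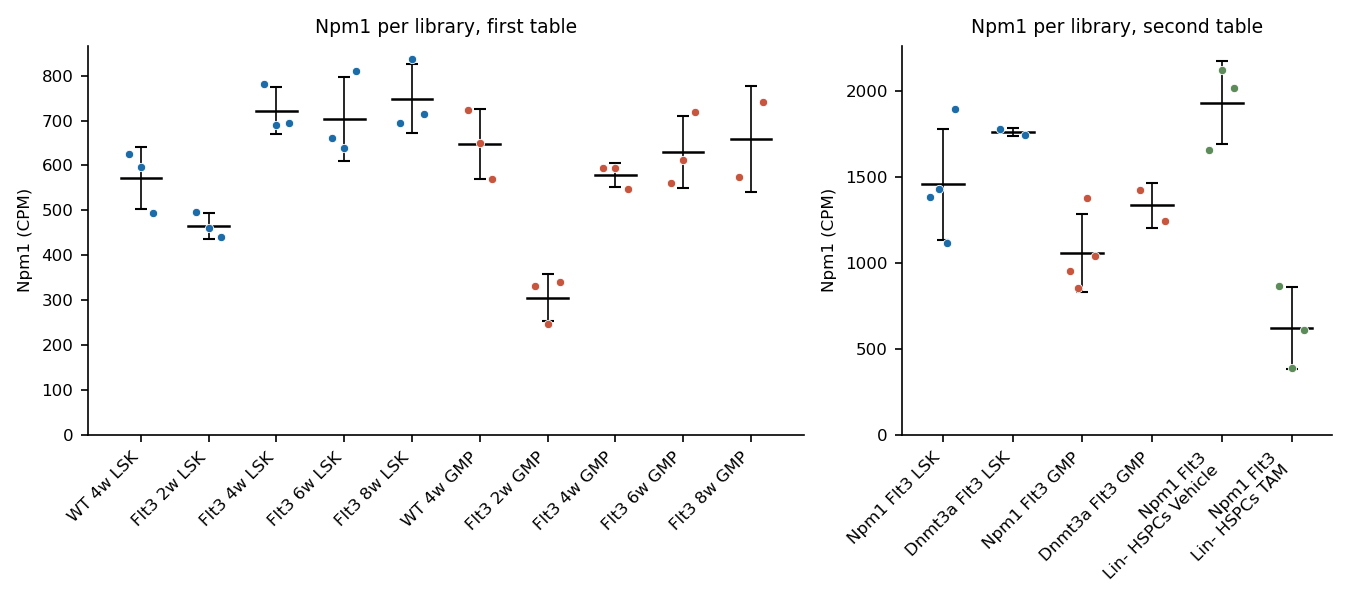
Npm1 in CPM by group, the first table on the left and the second on the right. Dots are libraries, bars are means and error bars are SD. The Flt3 2w GMP libraries are the lowest of the sorted groups on the left, and the 3 TAM libraries lie below the 3 vehicle libraries on the right.

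Levels were also summed over the 39 genes. The sum was 7432 ± 711 CPM in WT LSK and 8141 ± 394 in WT GMP (SD, n = 3). It was 5921 ± 744 CPM in Flt3 LSK at 2 weeks, 8985 ± 146 at 4 weeks, 8899 ± 466.03 at 6 weeks and 8271 ± 218 at 8 weeks. In Flt3 GMP it was 4855 ± 686 CPM at 2 weeks and then 8278 ± 136, 8534 ± 67 and 8133 ± 111. The 2-week libraries were low in both cell types, and the Flt3 4w LSK libraries (8823 to 9107 CPM) lay above the WT LSK libraries (6626 to 7972 CPM). In the second table the sum was 9459 ± 855 CPM in Npm1 Flt3 LSK and 8257 ± 940 in Npm1 Flt3 GMP (n = 4), 13977 ± 181 and 11876 ± 372 in Dnmt3a Flt3 LSK and GMP (n = 2), 12978 ± 1533 with vehicle and 4919 ± 982 with TAM (n = 3). Unlike for Npm1 alone, every Dnmt3a Flt3 library of a cell type had a higher sum than every Npm1 Flt3 library of that type. A sum of CPM is a share of all RNA in the library, and in sorted or enriched bulk cells fewer cells of a type and less RNA per cell cannot be told apart.

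**Figure D2:**
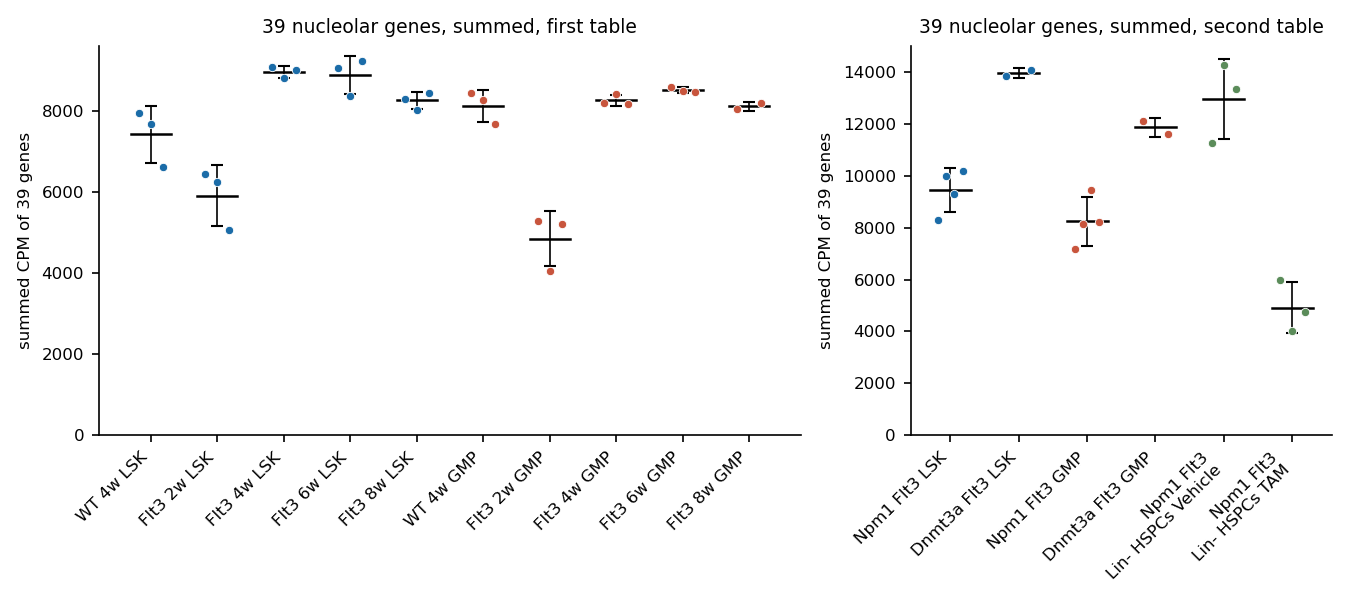
Summed CPM of the 39 genes by group, the first table on the left and the second on the right. Dots are libraries, bars are means and error bars are SD. The 2-week Flt3 libraries, and in the second table the TAM libraries, are the lowest.

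After TAM, given to remove the mutant Flt3 allele, nearly the whole assembly line was lower in Npm1 Flt3 Lin- HSPCs than after vehicle. With TAM against vehicle, 38 of the 39 genes fell and none rose, where 21.3% of the 25269 genes tested fell and 10.1% rose (31.4% in either direction). All 39 fitted values were below 0. Their median log2 fold change was -2.39, beside 0.56 over all genes, and the middle range of the 39 ran from -2.74 to -1.90. In CPM, 35 of the 39 genes had every TAM library below every vehicle library and none had every one above, where 11.1% of all genes tested were below and 60% above in this way. All 4 chaperones, all 3 box C/D proteins, all 5 polymerase I genes, all 11 small subunit genes and all 12 large subunit genes fell, and 3 of the 4 box H/ACA genes.

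Among the chaperones, Ncl (nucleolin, which binds the ribosomal RNA precursor) stood at 1125.1, 659.1 and 719.0 CPM with TAM and at 2393.7, 3057.5 and 2820.5 CPM with vehicle. Every TAM library of Ncl was below every vehicle library, and the log2 fold change was -3.01 ± 0.40 (SE, edgeR adjusted p = 1.66e-06). Npm1 changed by -2.93 ± 0.40 (edgeR adjusted p = 2.56e-06). Npm3, a nucleoplasmin family chaperone related to Npm1, stood at 11.7, 9.79 and 10.4 CPM with TAM and at 35.1, 29.7 and 39.1 CPM with vehicle, without overlap, and changed by -2.91 ± 0.38 (edgeR adjusted p = 1.43e-06). The 3 nucleolar chaperones fell by nearly the same amount.

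Dkc1 (dyskerin), the pseudouridine synthase of the box H/ACA particle, was the gene that fell furthest. It stood at 209.7, 125.6 and 217.5 CPM with TAM and at 555.4, 769.6 and 705.6 CPM with vehicle, a log2 fold change of -3.17 ± 0.41 (edgeR adjusted p = 9.88e-07). Its partner Gar1 did not pass the test, at 2.59, 3.55 and 1.77 CPM with TAM and 4.15, 3.51 and 2.15 CPM with vehicle, which overlapped. Nop58, a scaffold of the box C/D particle, stood at 195.6, 132.0 and 181.7 CPM with TAM and at 509.4, 630.9 and 591.1 CPM with vehicle (log2 fold change -3.04 ± 0.40, edgeR adjusted p = 1.15e-06). Fbl (fibrillarin), the methyltransferase of that particle, was at 35.7, 46.0 and 29.5 CPM with TAM and at 63.3, 62.5 and 55.7 CPM with vehicle. The groups did not overlap for Dkc1, Nop58 or Fbl.

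Gnl3 (nucleostemin), a nucleolar GTPase of large subunit processing, stood at 148.9, 95.8 and 120.3 CPM with TAM and at 320.9, 481.6 and 418.8 CPM with vehicle. The groups of Gnl3 were apart, and the log2 fold change was -3.05 ± 0.41 (edgeR adjusted p = 1.66e-06). Wdr43, a small subunit processome protein, changed by -2.53 ± 0.39 and Mybbp1a, a nucleolar regulator of ribosomal DNA transcription, by -2.43 ± 0.38 (edgeR adjusted p = 1.06e-05 and 1.3e-05). Polr1a, the largest subunit of RNA polymerase I, had the smallest change among those that fell, -1.53, with 84.4, 99.2 and 88.5 CPM under TAM against 98.0, 116.9 and 119.4 CPM under vehicle. Its TAM and vehicle libraries overlapped slightly, in 1 library of each. The 7 genes with CACGTG in the window spanned -2.64 (Grwd1) to -1.89 (Utp20), inside the range of the other genes.

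The rest of the pathway moved alike. Of 88 other listed ribosome biogenesis genes, 84 fell and none rose, led by Lyar (-3.29 ± 0.40), Rsl24d1 (-3.11 ± 0.40) and Nifk (-2.94 ± 0.40). In the Myc family, 4 of 9 genes fell and none rose. Myc stood at 125.5, 75.3 and 70.9 CPM with TAM and at 205.5, 328.8 and 308.7 CPM with vehicle, without overlap, and changed by -2.94 ± 0.41. Flt3 itself changed by -1.68 ± 0.39, with 121.4, 182.6 and 83.3 CPM under TAM and 209.3, 181.0 and 160.1 CPM under vehicle.

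Other cell markers moved with TAM as well. Summed dendritic cell markers were at 17043 to 22851 CPM with TAM against 2208 to 3536 with vehicle, neutrophil markers at 1688 to 2251 against 47 to 90.3, erythroid markers at 913 to 1526 against 2.72 to 10.8, and B and plasma cell markers at 572 to 3873 against 195.5 to 353, while GMP markers were at 857 to 1211 against 5249.5 to 6405. The share of counts in predicted genes was 2.25% to 3.15% with TAM and 0.566% to 1.49% with vehicle, and library totals were 15053592 to 22654054 against 40865360 to 103446979. Their part in the result was not tested. The size of the change depended on scaling: with library size alone the median was -1.12 over the 39 genes and 1.64 over all genes, 33 of the 39 fell, and Npm1 changed by -1.63. The distance of the 39 genes from the median of all genes was -2.95 with the standard scaling and -2.76 with library size alone, and over all genes the calls were 2544 higher and 5382 lower with the former and 9294 higher and 2105 lower with the latter. Fitted with the title number as a block, all 39 genes fell. Whether that number pairs TAM and vehicle libraries was not established. No group with TAM and no Flt3 allele to remove was analysed, so effects of the drug and of the deletion cannot be told apart.

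**Figure D3:**
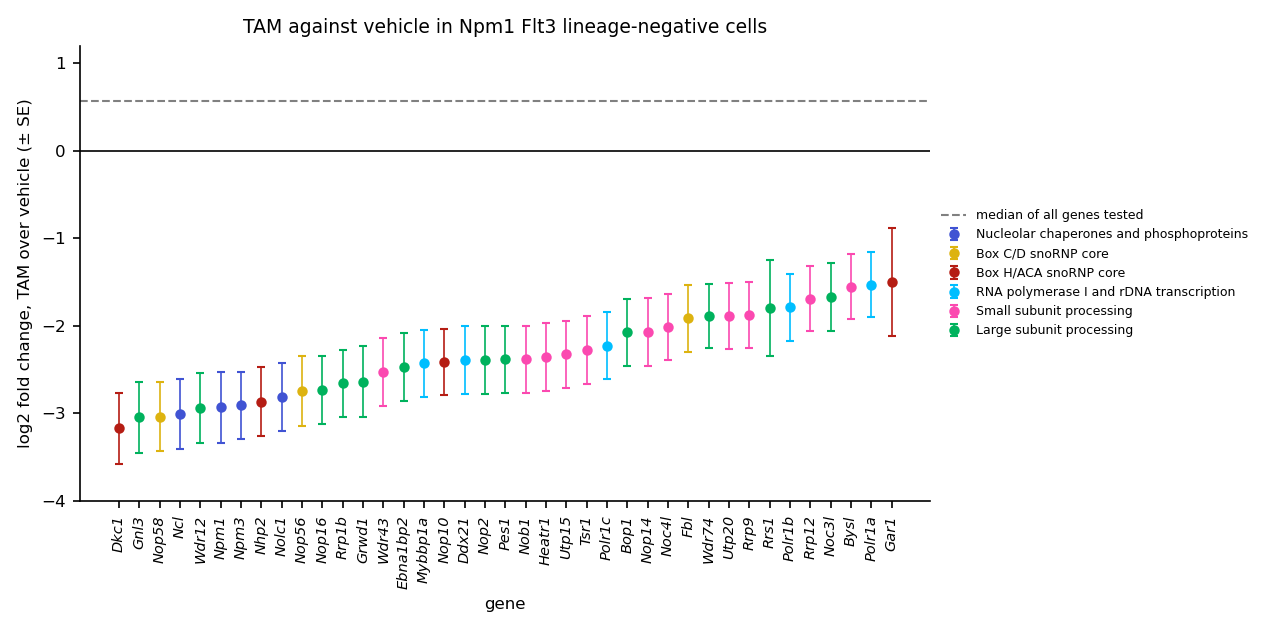
Log2 fold change (TAM against vehicle, 3 libraries each) of each of the 39 genes, sorted by value and coloured by role, with error bars of 1 SE. The dashed line is the median of all genes tested, 0.56, and every gene lies below 0, from Dkc1 at -3.17 to Gar1 at -1.50.

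In WT mice the comparison of cell types asked how stem-cell-rich LSK and committed GMP differ before any mutation. Of the 39 genes, 10 were lower in LSK than in GMP and none was higher, where 13.6% of the 10619 genes tested were lower and 15.5% higher (29% in either direction). The 10 were Npm1, the box H/ACA proteins Nop10 and Nhp2, the small subunit genes Bysl and Rrp9 and the large subunit genes Ebna1bp2, Wdr74, Wdr12, Nop16 and Bop1. None of the polymerase I or box C/D genes passed. The median log2 fold change was -0.28 over the 39 genes and 0.13 over all genes, and 30 of the 39 values were below 0. In CPM, 6 of the 39 genes had every LSK library above every GMP library and 7 had them below, where 40.8% of all genes tested were above and 9.3% below in this way.

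Nop10, a small protein of the box H/ACA particle, differed most clearly. It stood at 878.7, 866.6 and 823.9 CPM in WT LSK and at 1591.4, 1326.0 and 1354.1 CPM in WT GMP, without overlap (log2 fold change -1.08 ± 0.13, edgeR adjusted p = 9.96e-09). Its partner Nhp2, at 737.6, 625.5 and 560.0 CPM in LSK and 889.8, 928.8 and 908.1 CPM in GMP, differed by -0.84 ± 0.13 (edgeR adjusted p = 1.68e-06). Ebna1bp2, a large subunit assembly factor, was at 336.9, 305.4 and 297.7 CPM in LSK and 391.2, 382.3 and 377.6 CPM in GMP (-0.63 ± 0.12, edgeR adjusted p = 0.0001). All 3 genes had every LSK library below every GMP library. Wdr74 differed by -0.64 ± 0.16, Bysl (bystin, a late small subunit factor) by -0.82 ± 0.21 and Npm1 by -0.52 ± 0.13 (edgeR adjusted p = 0.00155, 0.00246 and 0.00248), while the Npm1 libraries overlapped in CPM.

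Npm3 had a fitted value of -1.30 ± 0.69 (edgeR adjusted p = 0.173), Nop58 -0.38 ± 0.20 (0.153) and Polr1a 1.00 ± 0.42 (0.0703). With a block on the animal, since LSK and GMP libraries share animal codes, 13 genes were lower and Nop58 was among them (-0.38, edgeR adjusted p = 0.0332). Of the other ribosome biogenesis genes, 19 of 86 were lower in LSK and none was higher, led by Fcf1 (-0.79 ± 0.13), Rpf2 (-0.94 ± 0.18) and Lyar (-0.76 ± 0.15). Mycn, which is known to be expressed in stem cells, was higher in LSK by 4.41 ± 0.36. The direction depended on scaling: with library size alone the median of the 39 genes was 0.06 and that of all genes 0.46, 3 of the 39 were higher and 2 lower, and Npm1 changed by -0.17 (edgeR adjusted p = 0.309). The distance between both medians was -0.41 under either scaling, and over all genes 3195 were higher and 656 lower with library size alone, in place of 1642 and 1439. In this comparison log2 fold changes also ran with exon length, with a rank correlation of 0.513 over the 39 genes and 0.277 over all genes, across genes that are not independent of each other, and its part in the result was not tested.

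The Flt3 mutation alone was compared with WT at the matched time of 4 weeks. WT and Flt3 libraries carry separate runs of sample codes. Genotype and the run of codes thus cannot be told apart in any comparison of Flt3 mice with WT. In LSK, 6 of the 39 genes rose and none fell, where 4.54% of the 9892 genes tested rose and 5.6% fell (10.1% in either direction). They were Nolc1, Nop56, Rrp9, Bop1, Rrp1b and Grwd1. The median was 0.29 over the 39 genes and -0.01 over all genes, 34 of the 39 values were above 0, and 20 of the 39 genes had all 3 Flt3 libraries above all 3 WT libraries in CPM while none had them below, where 12.5% of all genes tested were above and 15.9% below in this way.

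Nolc1, a phosphoprotein that chaperones small nucleolar RNA particles, stood at 248.5, 229.3 and 265.7 CPM in Flt3 4w LSK and at 201.8, 143.4 and 140.6 CPM in WT LSK (log2 fold change 0.64 ± 0.14, edgeR adjusted p = 0.00315). Bop1, a large subunit factor that acts with Pes1 and Wdr12, was at 161.0, 192.8 and 161.7 CPM against 114.8, 89.0 and 107.9 CPM (0.74 ± 0.16, edgeR adjusted p = 0.00317). Rrp9, a protein of the U3 small nucleolar RNA particle, was at 109.6, 90.8 and 105.9 CPM against 57.9, 56.9 and 65.7 CPM (0.79 ± 0.21, edgeR adjusted p = 0.0108). For Nolc1, Bop1 and Rrp9, the mutant and WT libraries did not overlap. Rrp1b was at 77.5, 88.9 and 99.0 CPM against 37.5, 63.0 and 52.6 CPM (0.87 ± 0.24, edgeR adjusted p = 0.0186). Nop56, the box C/D scaffold that pairs with Nop58, was at 237.2, 195.6 and 266.0 CPM against 179.0, 176.8 and 169.01 CPM (0.46 ± 0.14, edgeR adjusted p = 0.0323). Both were also higher in every mutant library.

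Npm1 had a value of 0.37 ± 0.13 (edgeR adjusted p = 0.0614) and Npm3 0.26 ± 0.69 (0.873), short of the threshold. Mybbp1a had 0.39 ± 0.17 (0.161) and Nop10 0.31 ± 0.12 (0.119). Elsewhere in the pathway, 6 of the 86 other biogenesis genes tested rose and none fell, among them Wdr18 (0.53 ± 0.13), Nip7 (0.61 ± 0.16) and Ppan (0.50 ± 0.15). Mycn rose by 1.63 ± 0.18 and Mycl by 3.33 ± 0.86, and Myc had a value of 0.01. Marker sums moved too: erythroid markers were at 162 to 229 CPM in Flt3 4w LSK against 1459 to 1831 in WT LSK. Megakaryocyte markers were at 16.2 to 35.4 against 705 to 1084. B and plasma cell markers were at 15.9 to 47.2 against 548 to 1533, and basophil and mast cell markers at 126 to 138 against 311 to 690. Dendritic markers were higher, at 1972 to 5596 against 340 to 586, as were LSK markers, at 2531 to 2836 against 2068 to 2335. The part of these marker sums in the result was not tested. The count was 2 without WT LSK replicate 1, 3 without WT LSK replicate 3 and 3 without Flt3 4w LSK replicate 1.

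Averaged over 2, 4, 6 and 8 weeks, Flt3 LSK had 4 of the 39 genes higher than WT LSK and none lower, where 6.89% of the 9892 genes tested were higher and 8.07% lower (15% in either direction). The 4 were Nolc1 (0.48 ± 0.12, edgeR adjusted p = 0.00414), Rrp9 (0.58 ± 0.17, 0.019), Bop1 (0.44 ± 0.14, 0.0258) and Rrp1b (0.65 ± 0.20, 0.0284), all of which also rose at 4 weeks. These 4 share the WT libraries and the 4-week libraries with the comparison above, so the overlap is no separate evidence. WT libraries were from 4 weeks only, so the arms of this average differed in time as well as genotype. Npm1 had a value of 0.30 ± 0.10 (edgeR adjusted p = 0.051), and Npm3 0.39 ± 0.56 (0.725). The median was 0.19 over the 39 genes and -0.00 over all genes, with 33 above 0. Over all genes tested, 492 were higher and 1145 lower with library size alone, in place of 682 and 798. Among 86 other biogenesis genes tested, 7 were higher and none lower, including Ppan (0.43 ± 0.12), Ddx18 (0.57 ± 0.17) and Rpf2 (0.47 ± 0.14). Mycn was higher by 1.35 ± 0.15 and Mycl by 4.01 ± 0.76, and Myc was lower by 0.28.

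The 2-week LSK libraries held B and plasma cell markers at 23700 to 69979 CPM in sum (548 to 1533 in WT LSK), with Pax5 at 0, and dendritic markers at 11440 to 19964 CPM. Without them 7 of the 39 genes were higher, and Npm1 was among these at 0.38 (edgeR adjusted p = 0.018). The count was 0 without WT LSK replicate 3, 1 without WT LSK replicate 1, 2 without WT LSK replicate 2, and 7 without Flt3 2w LSK replicate 3.

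In GMP the picture differed by gene. At 4 weeks, 1 of the 39 genes rose and 2 fell, where 6.54% of the 9602 genes tested rose and 8.3% fell (14.8% in either direction). Nop56 stood at 181.7, 236.0 and 241.7 CPM in Flt3 4w GMP against 137.0, 135.4 and 123.4 CPM in WT GMP (0.54 ± 0.17, edgeR adjusted p = 0.0291). Nop10 was at 1001.1, 930.7 and 837.5 CPM against 1591.4, 1326.0 and 1354.1 CPM (-0.83 ± 0.14, edgeR adjusted p = 4.02e-05), and Ebna1bp2 at 265.6, 345.6 and 331.0 CPM against 391.2, 382.3 and 377.6 CPM (-0.49 ± 0.13, edgeR adjusted p = 0.00982). None of these 3 overlapped between the groups, and Nop56 was the only gene of the 39 that rose at 4 weeks in both cell types. Npm1 had a value of -0.37 ± 0.14 (edgeR adjusted p = 0.0746) and Npm3 -0.41 ± 0.66 (0.749).

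The median over the 39 genes was 0.04 and that of all genes was 0.04. In CPM, 12 of the 39 genes had all Flt3 libraries above all WT libraries and 3 had them below, where 25.3% of all genes tested were above and 9.89% below in this way. Scaling by library size alone gave medians of 0.24 and 0.25, with 1189 of all genes tested higher and 444 lower in place of 628 and 797. Among 86 other biogenesis genes, 1 rose (Nol10, 1.22 ± 0.39) and 4 fell, among them Fcf1 (-0.60 ± 0.15), Emg1 (-0.52 ± 0.15) and Ltv1 (-0.59 ± 0.20). Myc rose by 0.57 ± 0.15, Mycn by 2.50 ± 0.59 and Mycl by 3.70 ± 0.78. Summed GMP markers were at 26131 to 31618 CPM in Flt3 4w GMP against 45856 to 55891 in WT GMP, and dendritic markers at 2905 to 4588 against 285 to 424, and their part in the result was not tested. Fold changes also ran with exon length, with a rank correlation of 0.423 over the 39 genes and 0.261 over all genes.

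Over all 4 times, 6 of the 39 genes were lower in Flt3 GMP than in WT GMP and none was higher, where 13.3% of the 9602 genes tested were lower and 11.7% higher (25% in either direction). They were Nop10 (-0.90 ± 0.10, edgeR adjusted p = 3.71e-08), Ebna1bp2 (-0.54 ± 0.10, 0.00014), Nhp2 (-0.49 ± 0.10, 0.000279), Npm1 (-0.44 ± 0.11, 0.00247), Wdr12 (-0.36 ± 0.11, 0.0194) and Wdr74 (-0.33 ± 0.12, 0.044). Nop10 and Ebna1bp2 also fell at 4 weeks, with the same WT and 4-week libraries, so the overlap is no separate evidence. As in LSK, WT libraries were from 4 weeks only, so the arms of this average differed in time as well as genotype. Npm3 had -0.67 ± 0.50 (edgeR adjusted p = 0.376) and Polr1a 0.92 ± 0.39 (0.0894). The 2-week GMP libraries held basophil and mast cell markers at 57201 to 70534 CPM, against 1287 to 1599 in WT GMP. Without the 2-week libraries 3 of the 39 genes were lower and 1 higher, Npm1 was at -0.27 (edgeR adjusted p = 0.0782), and the median of the 39 genes was 0.08 in place of -0.10. The direction of the median depended on scaling too: with all times kept and library size alone it was 0.03, with 1 of the 39 genes higher and 4 lower, while the median of all genes was 0.18 in place of 0.04. The distance between both medians was -0.14 under either scaling, and over all genes 1582 were higher and 843 lower with library size alone, in place of 1126 and 1277. Of the other ribosome biogenesis genes, 11 of 86 were lower and 2 higher, led by Ltv1 (-0.79 ± 0.15), Fcf1 (-0.58 ± 0.11) and Emg1 (-0.50 ± 0.12), with Utp3 (0.37 ± 0.13) and Nol10 (0.86 ± 0.32) higher. The count of the 39 was 3 without WT GMP replicate 1. Fold changes ran with exon length here too, with a rank correlation of 0.473 over the 39 genes and 0.33 over all genes. The part of length in the result was not tested here.

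The difference between cell types was tested directly, as the Flt3 effect in LSK minus that in GMP at 4 weeks. For 5 of the 39 genes the effect was more positive in LSK and for none in GMP, where 3.09% of the 10619 genes tested were more positive in LSK and 2.17% in GMP (5.25% in either direction). They were Nop10 (1.13 ± 0.18, edgeR adjusted p = 6.53e-05), Ebna1bp2 (0.69 ± 0.18, 0.0131), Npm1 (0.74 ± 0.19, 0.0144), Bop1 (0.93 ± 0.25, 0.0204) and Nhp2 (0.63 ± 0.18, 0.0294). All 5 were also among the genes lower in WT LSK than in WT GMP. That comparison, those of Flt3 mice with WT and this difference share WT libraries, so genes called in several are no separate evidence. Npm1 in CPM went from 572 ± 70 in WT LSK to 722 ± 52 in Flt3 4w LSK, and from 648 ± 77 in WT GMP to 579 ± 27 in Flt3 4w GMP (SD, n = 3). Nop10 showed the same crossing, from 866.6 to 1013.8 CPM between the middle libraries of WT LSK and Flt3 4w LSK, and from 1354.1 to 930.7 CPM in GMP.

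Rrp9 had a value of 1.03 ± 0.34 (edgeR adjusted p = 0.0673), which passed with a block on the animal (1.05, 0.0351), and Npm3 had 0.66 ± 1.00 (0.786). Of the other ribosome biogenesis genes, 7 of 86 were more positive in LSK and none in GMP. Among the 7 were Polr1d (0.92 ± 0.22), Nip7 (0.94 ± 0.23) and Emg1 (0.75 ± 0.19). The rank correlation of the values with exon length was -0.323 over the 39 genes and -0.221 over all genes. The part of length in this difference was not tested. With library size alone 1 of the 39 genes passed, Npm1 was at 0.50 (edgeR adjusted p = 0.118), and the median of all genes moved from -0.08 to -0.31, with 106 of all genes tested more positive in LSK and 460 in GMP in place of 328 and 230. The count was 2 without Flt3 4w GMP replicate 3, and 3 without any 1 of Flt3 4w LSK replicates 1 and 2, Flt3 4w GMP replicate 1, WT GMP replicate 1 and WT LSK replicates 2 and 3.

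**Figure D4:**
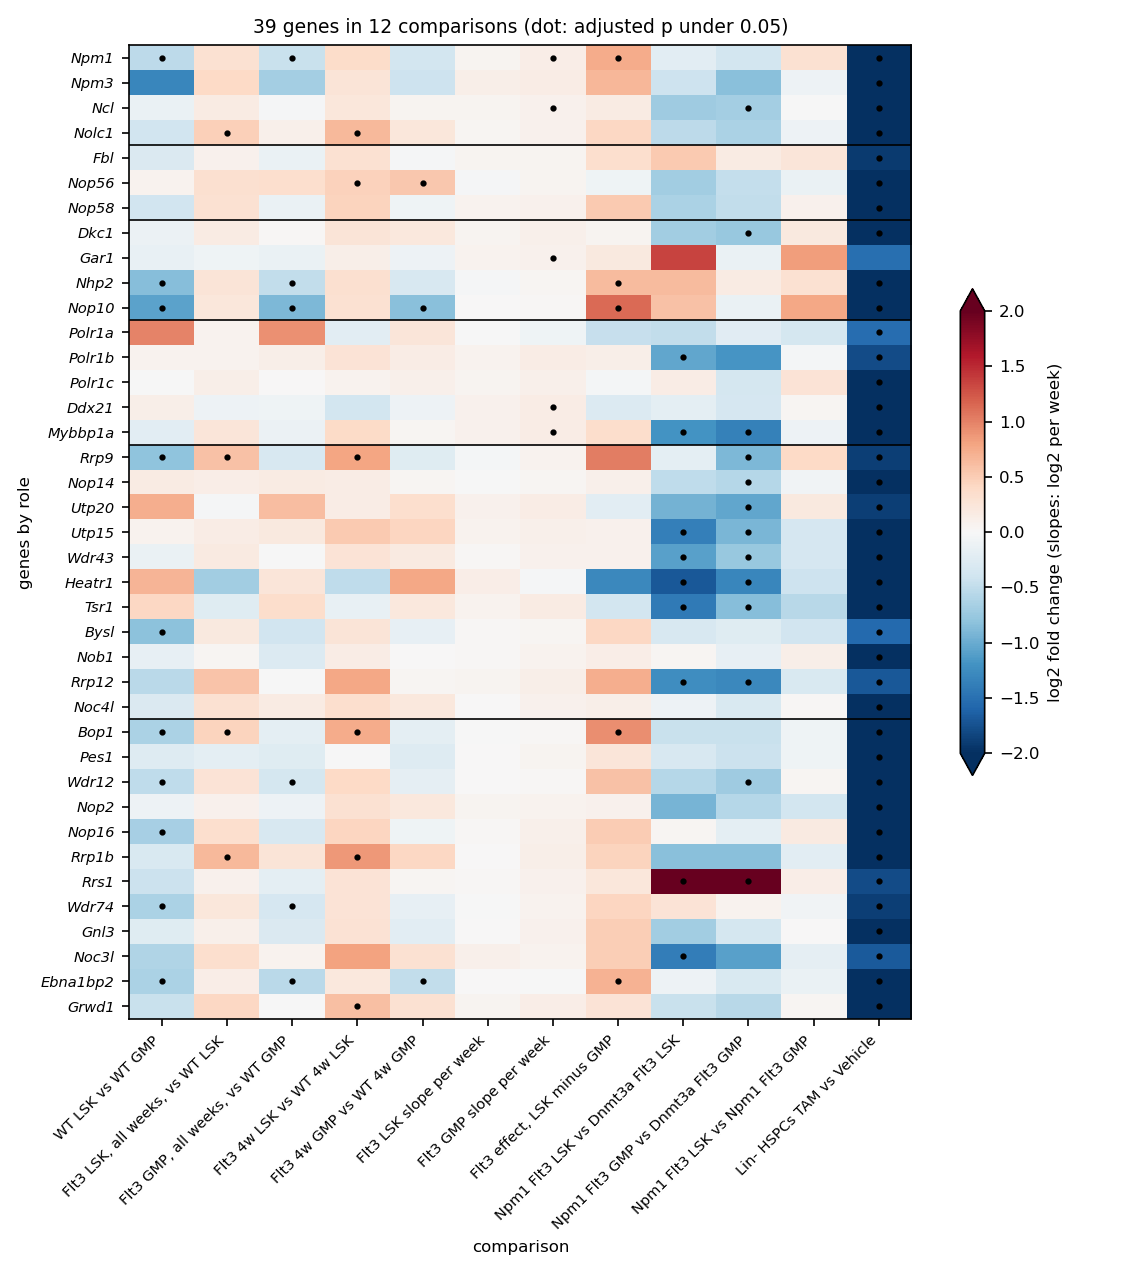
Log2 fold change of the 39 genes (rows, grouped by role) in the 12 comparisons (columns), with the colour limited to 2 in either direction and a dot where the edgeR adjusted p was under 0.05. The TAM column is negative throughout, and in the Npm1 Flt3 against Dnmt3a Flt3 columns 5 of the 8 dots on lower genes in LSK, and 8 of the 12 in GMP, fall in the small subunit group.

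Over time within Flt3 mice, values were fitted as a log2 change per week. In GMP, 5 of the 39 genes rose with time and none fell, where 3.33% of the 9372 genes tested rose and 8.91% fell (12.2% in either direction). They were Npm1 (0.13 ± 0.03 per week, edgeR adjusted p = 0.00744), Ddx21 (0.16 ± 0.05, 0.0278), Mybbp1a (0.14 ± 0.04, 0.0296), Gar1 (0.09 ± 0.03, 0.0369) and Ncl (0.08 ± 0.03, 0.0403). The median was 0.08 per week over the 39 genes and 0.00 over all genes, and 36 of the 39 values were above 0. Of all genes tested, 1152 rose and 589 fell with library size alone, in place of 312 and 835.

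The libraries show a step after 2 weeks. Ncl stood at 572.9, 483.7 and 541.5 CPM at 2 weeks, then at 906.8, 972.9 and 819.7 at 4 weeks, 929.4, 1014.5 and 870.6 at 6 weeks and 844.0 and 1052.9 at 8 weeks. Mybbp1a stood at 63.8, 40.045 and 58.9 CPM at 2 weeks and between 95.1 and 149.3 CPM in the 8 later libraries. Ddx21, an RNA helicase that links ribosomal DNA transcription with processing, was at 27.6, 32.0 and 46.9 CPM at 2 weeks and between 56.7 and 126.4 CPM later. Gar1 was at 178.7, 213.0 and 166.2 CPM at 2 weeks and between 290.0 and 388.9 CPM later. For all 4 genes every 2-week library was below every later one, and the later times overlapped.

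Without the 2-week libraries none of the 39 genes changed with time, their median was -0.01 per week, and Npm1 was at 0.05 per week (edgeR adjusted p = 0.839). The basophil and mast cell marker sum of the 2-week GMP libraries is given above, and its part in the result was not tested. The count was 1 without Flt3 2w GMP replicate 1, 2 without replicate 2 or 3 of that group or Flt3 6w GMP replicate 1 or 3, and 8 without Flt3 4w GMP replicate 1 or 3 or Flt3 8w GMP replicate 1. The 86 other biogenesis genes tested held 4 that rose and none that fell, among them Pelp1 (0.20 ± 0.05), Rrp15 (0.12 ± 0.04) and Rsl24d1 (0.11 ± 0.03).

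In LSK none of the 39 genes passed the same test, where 0.722% of the 9556 genes tested rose with time and 1.98% fell (2.7% in either direction). By edgeR 4 of the 39 had an unadjusted p under 0.05. Npm1 had a value of 0.06 ± 0.02 per week (edgeR adjusted p = 0.165), Npm3 0.12 ± 0.10 (0.561) and Mybbp1a 0.09 ± 0.04 (0.152). The median over the 39 genes was 0.04 per week, and 0.00 over all genes. Without the 8-week libraries 5 of the 39 rose, and without the 2-week libraries none did and the median of the 39 was -0.04 per week. The B and plasma cell markers of the 2-week LSK libraries are given above, and their part in the result was not tested. Of all genes tested, 209 rose and 121 fell with library size alone, in place of 69 and 189. None of the 86 other biogenesis genes tested passed in either direction by edgeR.

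Partner mutations were compared within the second table, with Flt3 mutant in both arms: Npm1 Flt3 against Dnmt3a Flt3. In LSK, 8 of the 39 genes were lower in Npm1 Flt3 and 1 was higher, where 3.76% of the 19470 genes tested were lower and 7.8% higher (11.6% in either direction). In GMP, 12 were lower and 1 higher, where 8.22% of the 17200 genes tested were lower and 12.5% higher (20.8% in either direction). The median of the 39 genes was -0.50 in both cell types, against -0.00 and 0.06 over all genes. In CPM, 24 of the 39 genes in LSK had every Npm1 Flt3 library below every Dnmt3a Flt3 library and 5 had them above, where 22.8% of all genes tested were below and 21% above, and in GMP 28 were below and 1 above, where 21.9% were below and 24.4% above. Small subunit genes made up most of those lower: 5 of 11 in LSK and 8 of 11 in GMP. Lower levels were not limited to that role. Summed by role in CPM, every Npm1 Flt3 library lay below every Dnmt3a Flt3 library of its type, except for box H/ACA genes in LSK. In LSK, polymerase I genes summed to 711 to 955 CPM against 1487 and 1507. Small subunit genes summed there to 959 to 1277 CPM against 1855 and 2050. Npm1 itself did not pass, at -0.22 ± 0.28 in LSK and -0.37 ± 0.20 in GMP (edgeR adjusted p = 0.704 and 0.231), nor did Npm3 at -0.42 ± 0.46 and -0.84 ± 0.40 (0.641 and 0.189).

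Heatr1, a small subunit processome protein that also supports RNA polymerase I transcription, stood at 60.0, 90.2, 85.1 and 79.4 CPM in Npm1 Flt3 LSK and at 244.7 and 283.8 CPM in Dnmt3a Flt3 LSK (-1.69 ± 0.27, edgeR adjusted p = 0.00471). In GMP, Heatr1 was at 72.7, 107.2, 111.9 and 83.9 CPM against 216.5 and 237.2 CPM (-1.31 ± 0.20, edgeR adjusted p = 0.0053). Mybbp1a was at 250.3, 366.8, 374.1 and 310.1 CPM against 778.0 and 776.5 CPM in LSK (-1.20 ± 0.26, edgeR adjusted p = 0.0181), and in GMP at 270.1, 394.3, 284.5 and 298.9 CPM against 784.9 and 759.3 CPM (-1.34 ± 0.18, edgeR adjusted p = 0.00332). Both genes were lower in every Npm1 Flt3 library of either cell type, with wide gaps. Tsr1, a late small subunit factor, was at 34.3, 54.1, 37.1 and 24.6 CPM against 93.5 and 109.0 CPM in LSK (-1.41 ± 0.30, edgeR adjusted p = 0.0163). In GMP, Tsr1 was at 42.0, 53.6, 39.6 and 55.8 CPM against 88.1 and 80.0 CPM, again apart.

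In LSK, Polr1b (a core subunit of RNA polymerase I) was lower by 1.04 ± 0.23 and Wdr43 by 1.09 ± 0.25 on the log2 scale (fitted values -1.04 and -1.09, edgeR adjusted p = 0.0192 and 0.0199). The remaining genes lower in LSK were Noc3l (-1.39), Utp15 (-1.37) and Rrp12 (-1.24). In GMP, Wdr12 (-0.72 ± 0.13), Utp20 (-1.04 ± 0.20) and Rrp12 (-1.29 ± 0.25) were among the lower genes (edgeR adjusted p = 0.00935, 0.0112 and 0.0114). Utp20 stood there at 38.5, 47.004, 38.2 and 33.3 CPM against 82.4 and 75.1 CPM, and Rrp12 at 48.7, 78.1, 44.9 and 70.8 CPM against 154.7 and 134.9 CPM, without overlap. Ncl was at 1308.0, 1344.2, 1731.6 and 1391.2 CPM against 2320.1 and 2165.0 CPM in GMP (-0.68 ± 0.15, edgeR adjusted p = 0.0188), and Dkc1 differed by -0.75 ± 0.20 (0.0355). Nop14 (-0.58), Rrp9, Tsr1 (-0.86), Utp15 and Wdr43 completed the 12 genes lower in GMP. In LSK, Ncl had -0.71 ± 0.26 and Dkc1 -0.70 ± 0.23 (edgeR adjusted p = 0.106 and 0.0784).

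Rrs1, a factor that helps load the 5S particle into the large subunit, went the other way. It stood at 45.7, 26.1, 12.8 and 41.5 CPM in Npm1 Flt3 LSK against 3.86 and 3.33 CPM in Dnmt3a Flt3 LSK (3.15 ± 0.56, edgeR adjusted p = 0.00773). In GMP, Rrs1 was at 22.9, 11.3, 39.96 and 27.6 CPM against 4.96 and 2.64 CPM (2.70 ± 0.56, edgeR adjusted p = 0.0146). It was higher in every Npm1 Flt3 library of both cell types. Rrs1 has 3 pseudogene copies by the measure used for Npm1, so a part of its reads may have been split among them or dropped.

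Of the other ribosome biogenesis genes, 7 of 88 were lower and 3 higher in LSK, led by Nat10 (-1.47 ± 0.30), Nol6 (-1.28 ± 0.30) and Tex10 (-1.05 ± 0.25), with Nop9 (1.74 ± 0.36), Nol9 (1.38 ± 0.31) and Utp18 (2.08 ± 0.56) higher. In GMP, 16 of 88 were lower and 4 higher, led by Wdr18 (-0.91 ± 0.14), Las1l (-1.05 ± 0.16) and Pelp1 (-1.39 ± 0.26), with Nop9 (2.10 ± 0.34), Nol9 (1.08 ± 0.21) and Utp23 (0.86 ± 0.23) higher. Nop9 and Nol9 were thus higher in Npm1 Flt3 cells of both types. Myc had values of 0.35 and -0.04 in LSK and GMP and did not pass, and 3 of 9 Myc family genes were higher in each, among them Mycl, Mnt and Mxd3.

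The fold changes ran with gene length. Across the 39 genes the rank correlation of log2 fold change with exon length was -0.677 in LSK and -0.511 in GMP, against -0.131 and -0.0989 across all genes, where genes are not independent of each other. The 20 genes of at most 3854 exon bases had medians of -0.15 in LSK and -0.32 in GMP, and the 19 longer ones -0.71 and -0.75. This split was chosen after the values had been seen. The series used both kinds of library kit, paired-end and single-end from the 3′ end, and the labels do not say which sample had which. The part of length in the result was not tested.

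**Figure D5:**
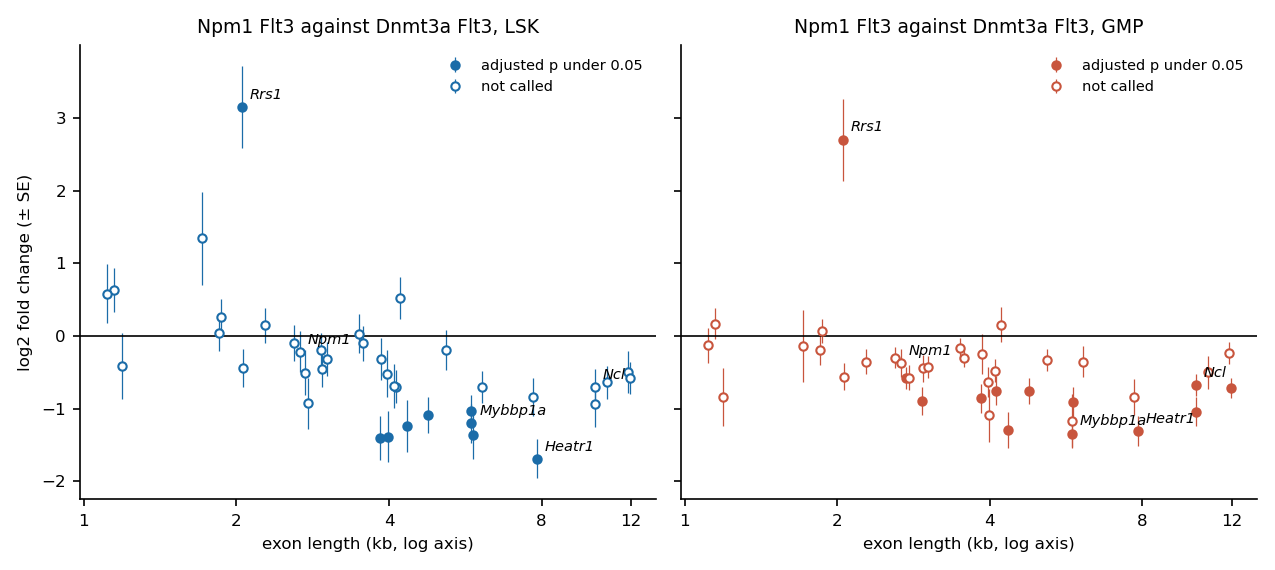
Log2 fold change of Npm1 Flt3 against Dnmt3a Flt3 (vertical axis, error bars of 1 SE) against exon length in kilobases (horizontal axis, log scale) for the 39 genes in LSK and GMP. Filled points had an edgeR adjusted p under 0.05; longer genes sit lower, and Rrs1 stands alone at the top at 3.15 in LSK and 2.70 in GMP.

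Other measures separated the same groups. Mitochondrial counts were 0.445% to 1.39% of the total in Npm1 Flt3 LSK against 0.381% and 0.423% in Dnmt3a Flt3 LSK, and 0.697% to 1.24% against 0.256% and 0.336% in GMP. Dendritic markers summed to 4488 to 19558 CPM against 456 to 525 in LSK, and to 14905 to 29967 against 292 to 317 in GMP. Monocyte and neutrophil sums were likewise higher in Npm1 Flt3 cells of both types. LSK markers in LSK were lower, at 1820 to 2576 CPM against 3341 to 3618. So were GMP markers in GMP, at 18893 to 50105 against 60431 to 62479. Erythroid markers in LSK were at 103 to 237 against 756 to 961. Basophil and mast cell markers in GMP were at 132 to 358 against 1589.5 to 1856. The part of these marker differences in the result was not tested. Genotype and the run of sample codes cannot be told apart. The Dnmt3a arms rest on 2 libraries each: in LSK 1 or 0 of the 39 genes passed without Dnmt3a Flt3 replicate 2 or 3, and in GMP 2 or 1 without replicate 1 or 3, and the LSK count was 5 without Npm1 Flt3 LSK replicate 2. With the libraries of conflicting codes added under their titles, 16 passed in LSK and 22 in GMP. Each arm then had 3 libraries but only 2 animal codes, so the added library may repeat an animal.

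Within Npm1 Flt3 mice, LSK and GMP did not differ in any of the 39 genes by the test, where 2.35% of the 21227 genes tested were higher in LSK and 2.27% lower (4.62% in either direction). By edgeR 3 of the 39 had an unadjusted p under 0.05, and DESeq2 also called 0. Npm1 had a value of 0.31 ± 0.20 (edgeR adjusted p = 0.444), Nop10 0.77 ± 0.30 (0.185) and Tsr1 -0.55 ± 0.22 (0.19), and Npm3 -0.10 ± 0.37 (0.923). The median was -0.04 over the 39 genes and 0.12 over all genes. Scaling by library size alone moved these medians to 0.14 and 0.31, with 790 of all genes tested higher in LSK and 288 lower in place of 499 and 481. Mycn was higher in LSK by 5.76 ± 0.83, as it was in WT mice. Whether the difference between LSK and GMP seen in WT mice was changed in Npm1 Flt3 mice was not tested, since the 2 genotypes are in separate tables.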

How the data were processed

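RNA was read from 50 libraries in 16 groups. The authors deposited 2 tables of raw counts per gene; per the submitters' processing notes STAR, featureCounts and the build mm10 were used, with versions, strand setting and annotation not given in the sources used here. Genes were matched by symbol to 39 of 40 listed names. The members, lists and tests were chosen with earlier results of these data known. Counts were tested with edgeR 4.0.16 (limma 3.58.1, R 4.3.3): filterByExpr, TMM, robust quasi-likelihood test and Benjamini-Hochberg adjusted p-values across the genes that passed the filter, called under 0.05. A log2 fold change is given with its SE. "Rose", "fell", "higher" and "lower" of a gene mean a call by this test; the other listed genes are named by their smallest p. WT and Flt3 LSK or GMP comparisons came from fits within the first table and the others within the second. All 39 genes passed the filter in every comparison. CPM divides a count by the library total and sets no gene length, so levels are not compared between genes. Named genes were Npm1 and Npm3 in every comparison, the 5 called genes per direction with the smallest p, the smallest-p gene of each role, and up to 3 called other biogenesis genes per direction.

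The fits were also run on simulated counts with 200 changed genes, and the share recovered is not given here. A count of 0 genes called thus sets no limit on the size of a change. DESeq2 1.42.0, other scalings and filters, left-out libraries and blocks were tried as alternatives. Within groups, 52 pairs of replicates were compared, and none matched within sampling noise (lowest chi-square per degree of freedom 2.35). LSK and GMP libraries with 1 animal code were taken to come from the same animal. Correlations of their deviations ran from -0.056 to 0.207 over 14 pairs in the first table. In the second they ran from -0.016 to 0.318 over 4 pairs. For TAM and vehicle libraries with the same number in their titles, these correlations ran from 0.102 to 0.296 (3 pairs). Pairs with different numbers were not examined, so the values do not show that the numbers pair the libraries. The 6 TAM and vehicle libraries each have their own code, so a block on the title number rests on no shared code. Codes were read as animals, which the labels do not spell out, and each library used has a code of its own within its group; p-values measure the spread between these libraries. Of the 39 genes, 14 have a pseudogene copy (300 bases or more at 90% identity or more), 18 overlap another gene's exons on the opposite strand and 4 on the same strand, among them Ncl and Nop56, which hold small RNA genes. Promoters and coordinates are of GRCm38.p6 and GRCm38.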

Additional observations from a re-analysis of the deposited data

Results flagged for a closer look

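In the groups of 4 libraries, 1 value stood far from the others in 2 of 42 sets of values examined, which covered the sum over the 39 genes and the genes named in the comparisons of the second table, where chance gives about 1 in 20. Nop10 was at 445.5 CPM in Npm1 Flt3 LSK replicate 4 and at 191.0 to 219.1 CPM in the other 3. Nop58 was at 420.5 CPM in Npm1 Flt3 LSK replicate 2 and at 305.4 to 319.9 CPM in the other 3. For 5 genes the effect of the Flt3 mutation at 4 weeks differed between LSK and GMP by an interaction test: Nop10 by 1.13, Bop1 by 0.93, Npm1 by 0.74, Ebna1bp2 by 0.69 and Nhp2 by 0.63 on the log2 scale, each more positive in LSK.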

How the results depend on the processing

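Counts below are of the 39 genes called. With library size alone they were 5 for WT LSK against GMP (10 with TMM), 1 for mean Flt3 against WT LSK (4), 16 for the Flt3 GMP slope (5), 1 for the interaction (5), 14 for Npm1 Flt3 against Dnmt3a Flt3 LSK (9) and 1 for Npm1 Flt3 LSK against GMP (0). That LSK count for the partner mutations was 17 by DESeq2, 15 with median-ratio scaling, 18 with the 5 CPM filter, 16 with all 12 sorted libraries in the fit and 16 with the conflicting library, and in GMP (13) it was 21 by DESeq2 and 22 with the conflicting library. Without the 2-week libraries 7 passed for mean Flt3 LSK and 0 for the GMP slope, and without the 8-week libraries 5 for the LSK slope (0) and 14 for the GMP slope. With the near-empty library the GMP slope gave 2 and the interaction 3, and over the mean of 4 times the interaction gave 9. With a replicate block the counts were 13 (WT LSK against GMP), 4 (mean Flt3 LSK) and 6 (mean Flt3 GMP). They were 5 and 3 (4 weeks, LSK and GMP), 0 and 2 (slopes, LSK and GMP) and 6 (interaction). They were 13 and 5 (partner mutations, LSK and GMP), 0 (Npm1 Flt3 LSK against GMP) and 39 (TAM). Outside the animal codes the groups share only a number. Correlations by that number were -0.202 to 0.162, and 0.102 to 0.296 for TAM and vehicle.

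Leaving out 1 library at a time, counts ran from 9 to 12 (WT LSK against GMP), 0 to 7 and 3 to 7 (mean Flt3, LSK and GMP), 2 to 5 and 2 to 3 (4 weeks), 0 to 0 and 1 to 8 (slopes), 2 to 6 (interaction), 0 to 11 and 1 to 16 (partner mutations), 0 to 0 (Npm1 Flt3 LSK against GMP) and 37 to 38 (TAM). Of values for named genes that passed, 370 kept direction and call in these runs and 91 lost the call, and under the other alternatives 385 kept both and 35 lost it; none reversed. Among genes that had not passed, the sign turned for Npm3 at 4 weeks in LSK (-0.12 to 0.82 without 1 library), Polr1c at 4 weeks in GMP (-0.014 to 0.20), the LSK slope without 2 weeks (Grwd1 -0.051, Mybbp1a -0.0070, Dkc1 -0.0089, Nop58 -0.037), the GMP slope without 2 weeks (Npm3 -0.012, Grwd1 -0.040), and Npm3 in Npm1 Flt3 LSK against GMP (0.015 with library size alone, -0.48 to 0.12 without 1 library). The cause was not tested.

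Over all genes, the LSK slope called 258 genes, 442 by DESeq2, 653 with no filter, 120 with the block, 1 without 2 weeks and 673 without 8 weeks; the GMP slope 1147, 1741 with library size alone, 1824 with no filter and 8 without 2 weeks; the interaction 558, and 1332 over 4 times; the partner mutations in LSK 2251, 4624 by DESeq2, 3496 with the 5 CPM filter, 3465 with the block and 3597 with the conflicting library; in GMP 3571, 2127 and 5403 with the latter pair; and Npm1 Flt3 LSK against GMP 980, 2192 by DESeq2 and 642 with only its own libraries.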
